A study of Mus musculus with 16 samples.

Results

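The genes described are the SLC25 mitochondrial carrier family in mouse liver, taken as every gene whose symbol is Slc25a followed by a number. Of 53714 genes in the deposited table, 47 met this rule, and 41 of them had enough reads to be tested among 13905 tested genes. The family includes Slc25a47, the gene that was deleted in the study.

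The study crossed 2 genotypes with 2 feeding states, with 4 libraries in each of the 4 groups. The groups are fasted KO (Slc25a47hep-/-, overnight fasting), fasted WT (Slc25a47hep+/+, overnight fasting), fed KO (Slc25a47hep-/-, chow diet) and fed WT (Slc25a47hep+/+, chow diet). All mice were males aged 9 weeks on a C57BL/6 background with the Slc25a47tm1c(EUCOMM)Hmgu allele, so the controls also carry the conditional allele. The deletion is labelled as hepatocyte-specific, and the Cre driver is not given in the sources used here, so other liver cells may still hold the intact gene. The labels do not say whether each library came from a separate animal or litter, and p-values therefore measure the spread between these libraries, which may be partly technical.

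Mitochondrial carriers are a large family of small inner membrane proteins that exchange metabolites, nucleotides and cofactors between the cytosol and the mitochondrial matrix, and a few of them sit in other membranes. In liver they are known for serving the urea cycle, gluconeogenesis, fatty acid oxidation and lipid synthesis, since each of these pathways is divided between the matrix and the cytosol. Carriers are made in the cytosol without a cleaved targeting signal in most cases and reach the inner membrane through the TOM complex, the small TIM chaperones and the TIM22 complex. Slc25a47 is a liver-enriched carrier whose physiological substrate is not settled.

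The libraries held 19.6 M to 27.3 M reads assigned to genes. Hepatocyte markers were abundant in every library. Their summed level was taken in CPM, the read count scaled to the size of the library. It was 126720 to 145460 CPM in fasted KO, against 107761 to 150056 CPM in fasted WT. In fed livers it was lower in KO with no overlap, at 103961 to 138742 CPM in fed KO against 139251 to 148428 CPM in fed WT. Of the 9 markers tested singly, 1 was higher and 4 lower in fasted KO, and 1 was higher and 3 lower in fed KO. Of all tested genes, 28.3% were called when fasted and 30.9% when fed. The median log2 fold change of these 9, KO over WT, was -0.30 when fasted and -0.21 when fed. Pancreatic acinar markers were high in fasted WT replicates 2 and 4, with summed levels of 1746 and 486 CPM, against 4.78 to 78.1 CPM in the other 14 libraries. Calls on single members that were lost without this pair of libraries are given with and without them. Stellate cell markers were higher in KO livers, with sums of 593.0 to 647 CPM in fasted KO against 453 to 489 CPM in fasted WT, and 583 to 672 CPM in fed KO against 412 to 491 CPM in fed WT. The part of these hepatocyte and stellate cell marker differences in the results below was not tested. In bulk liver RNA, fewer cells of a type and less RNA per cell cannot be told apart.

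Sequence upstream of the carrier genes is shown for 5 members that the results below turn on: Slc25a47 as the deleted gene, Slc25a39 and Slc25a33 as members higher in KO livers, Slc25a48 as a member lower in KO livers, and Slc25a20 as a member that rose on fasting. Each line holds the 250 bases before the annotated transcript start, written 5′ to 3′ on the strand of the gene, from RefSeq on GRCm38.p6. Capitals mark matches to the GC box, GGGCGG or its reverse complement.
Slc25a47: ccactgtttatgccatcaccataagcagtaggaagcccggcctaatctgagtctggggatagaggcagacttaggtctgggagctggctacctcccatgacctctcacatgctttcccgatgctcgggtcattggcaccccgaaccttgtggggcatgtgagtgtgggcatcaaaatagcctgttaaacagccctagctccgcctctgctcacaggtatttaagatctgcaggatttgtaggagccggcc
Slc25a39: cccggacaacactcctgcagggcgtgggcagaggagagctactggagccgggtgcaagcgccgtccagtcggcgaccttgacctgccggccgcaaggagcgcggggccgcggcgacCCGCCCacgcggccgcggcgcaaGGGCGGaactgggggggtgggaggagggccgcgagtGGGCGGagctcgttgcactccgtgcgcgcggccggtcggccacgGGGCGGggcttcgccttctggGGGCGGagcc
Slc25a33: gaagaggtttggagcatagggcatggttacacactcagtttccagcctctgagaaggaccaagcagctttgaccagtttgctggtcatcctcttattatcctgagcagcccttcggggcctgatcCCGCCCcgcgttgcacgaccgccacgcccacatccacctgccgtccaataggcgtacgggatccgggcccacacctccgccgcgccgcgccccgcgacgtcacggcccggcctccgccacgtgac
Slc25a48: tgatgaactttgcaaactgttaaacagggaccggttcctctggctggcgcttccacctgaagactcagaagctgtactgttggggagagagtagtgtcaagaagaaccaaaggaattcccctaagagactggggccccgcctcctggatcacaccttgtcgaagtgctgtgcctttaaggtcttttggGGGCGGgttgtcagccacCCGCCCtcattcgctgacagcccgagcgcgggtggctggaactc
Slc25a20: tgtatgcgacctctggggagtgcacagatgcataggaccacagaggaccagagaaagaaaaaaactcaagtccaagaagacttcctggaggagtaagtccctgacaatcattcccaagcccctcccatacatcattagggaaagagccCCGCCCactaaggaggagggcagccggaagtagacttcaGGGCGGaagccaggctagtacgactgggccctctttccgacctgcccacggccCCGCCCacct
These windows lie at chr12:108850879-108851128 (plus strand) for Slc25a47, chr11:102407518-102407767 (minus strand) for Slc25a39, chr4:149774268-149774517 (minus strand) for Slc25a33, chr13:56438105-56438354 (plus strand) for Slc25a48 and chr9:108661886-108662135 (plus strand) for Slc25a20. The Slc25a47 and Slc25a39 windows lie inside the annotated spans of their genes, which have transcripts starting further upstream. Those of Slc25a33 and Slc25a20 overlap the spans of their genes in part. The Slc25a47 window holds no GC box, and the other 4 windows hold at least 1.

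Such a window was found for 36 of the 47 members, with 46 windows in all because some genes have several starts. A GC box, searched on both strands, was present in 32 of the 46 member windows, against 32.7% of all 32851 windows. The letters of a TATA box (TATAAA) were present in 2 member windows, those of Slc25a18 and Slc25a21, against 12.4% of all windows. Both of these matches were on the strand opposite to the gene. They lay 75 to 70 bases before the start in Slc25a18 and 10 to 5 bases before it in Slc25a21. None of the member windows held the C/EBP-ATF core TGATGNAA, which was found in 3.45% of all windows, or the HNF4 element CAAAGTCCA, found in 0.384%. All were searched on both strands, and none contains another. The median number of CpG dinucleotides was 11.5 in member windows and 6 in all windows, with 6 for Slc25a47 and 35 for Slc25a39. These matches describe letters in 1 short window and say nothing of whether a factor binds there.

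Levels between carrier genes were compared per length, as CPM divided by kilobases of annotated exon. In WT livers Slc25a47 was the highest of the 41 tested members per kilobase, at 318 ± 43.2 CPM per kb in fasted WT and 213 ± 51.5 CPM per kb in fed WT (SD, n = 4 each). In KO livers the first place was held by Slc25a39, which carries glutathione into the matrix, at 208 ± 15.6 CPM per kb in fasted KO and 204 ± 12.4 CPM per kb in fed KO. Slc25a5, the main adenine nucleotide translocase of liver, was the second in all 4 groups, between 181 ± 5.27 CPM per kb in fed WT and 205 ± 5.88 CPM per kb in fasted WT. The library ranges of Slc25a39 and Slc25a5 overlapped in fasted KO and in fed KO, and those of Slc25a47 and Slc25a5 overlapped in fed WT, so their order there is within the spread. Reads that aligned to more than 1 place were not counted by gene, and made up 32.0 to 39.3% of reads in KO libraries and 40.4 to 45.8% in WT libraries. The counts of Slc25a5, which has processed pseudogenes, may be too low for this reason.

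Among the next highest were Slc25a1, the citrate carrier, Slc25a15, the ornithine carrier of the urea cycle, Slc25a13, the aspartate and glutamate carrier citrin, and Slc25a22, a glutamate carrier, each between 44.7 and 94.5 CPM per kb in group means. At the low end stood Slc25a53, Slc25a35, Slc25a40 and Slc25a36, between 0.1396 and 0.525 CPM per kb in group means. The lowest group mean was that of Slc25a53 in fed KO, at 0.1396 ± 0.0208 CPM per kb. The 6 members not tested had 0 to 53 counts summed over the 16 libraries. They are Slc25a2, another ornithine carrier, with 53 counts, Slc25a31, a translocase known from testis, with 24, Slc25a43 with 24, Slc25a18, another glutamate carrier, with 5, Slc25a41 with 1 and Slc25a54 with 0. These 6 are not counted among the members below.

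**Figure D1:**
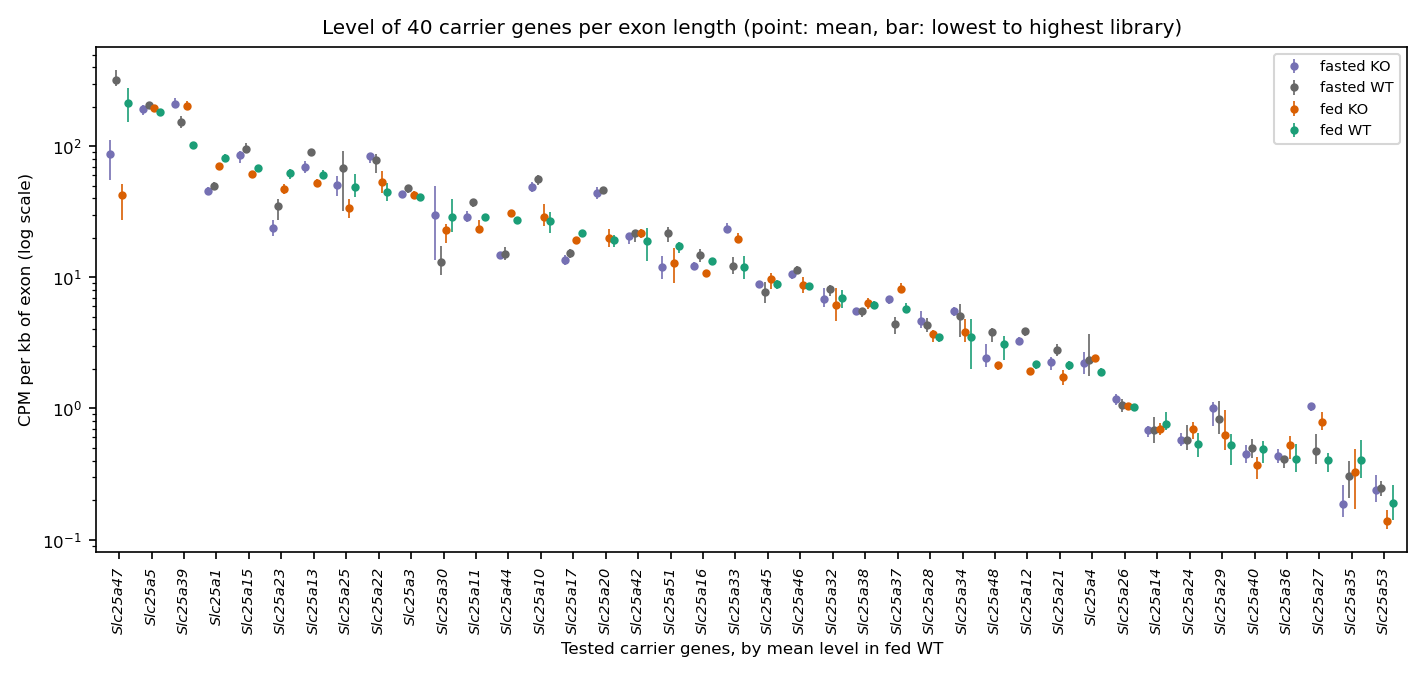
Level of 40 of the 41 tested carrier genes in CPM per kilobase of exon, on a log axis, ordered by the mean in fed WT. Points are group means and bars run from the lowest to the highest of 4 libraries. Slc25a47 leads in both WT groups, Slc25a39 and Slc25a5 lead in both KO groups, and Slc25a53 and Slc25a35 are at the low end.

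The pooled spread within groups, as the SD of log2 CPM, had a median of 0.19 over the 41 members. It was smallest for Slc25a3, the phosphate carrier, at 0.07, and largest for Slc25a35 at 0.47 and Slc25a30 at 0.46. For Slc25a47 it was 0.37, the sixth largest.

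Slc25a47 was lower in KO livers in both feeding states, and it remained detectable. Its gene spans chr12:108836046-108856815 on the plus strand of GRCm38. In the fasted state the libraries held 331, 315, 237 and 163 CPM in fasted KO, against 914, 1139, 889.5 and 855 CPM in fasted WT. In the fed state they held 81.8, 123, 153 and 146 CPM in fed KO, against 461, 621, 628 and 836 CPM in fed WT. No KO library reached the level of any WT library, within either state or across both. The log2 fold change of KO over WT was -1.86 ± 0.25 (SE, edgeR adjusted p = 8.06e-05) when fasted and -2.34 ± 0.25 (SE, edgeR adjusted p = 1.32e-05) when fed, which is 0.275 and 0.198 of the WT level. The difference between these 2 genotype effects was 0.48 ± 0.34 (SE, edgeR adjusted p = 0.529), so it was not separated from 0. Counts were deposited per gene and not per exon, so reads from exons outside the deleted part are included.

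Fasted libraries also had a higher Slc25a47 level in CPM than fed ones in both genotypes, with no overlap of the groups. The log2 fold change of fasted over fed was 1.05 ± 0.24 (SE, edgeR adjusted p = 0.00319) in KO livers and 0.58 ± 0.24 (SE, edgeR adjusted p = 0.078) in WT livers. The call in WT depended on the fit, with an adjusted p of 0.0204 by the DESeq2 Wald test and 0.0182 by edgeR on these 8 libraries alone. Slc25a47 took 7.25% ± 1.96 of the family's summed CPM per kb in fasted KO, against 21.7% ± 1.51 in fasted WT, and 3.90% ± 0.859 in fed KO, against 17.9% ± 3.25 in fed WT (SD, n = 4 each).

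The annotated span of Slc25a29, a carrier of basic amino acids, lies 162 bases from that of Slc25a47, on the opposite strand. The RefSeq start used for the Slc25a47 window above is not at this edge, since that window ends at chr12:108851128. Whether reads were counted by strand is not given in the sources used here. The level of Slc25a29 did not pass the test between genotypes, with log2 fold changes of 0.28 ± 0.24 (SE, edgeR adjusted p = 0.413) when fasted and 0.23 ± 0.26 (SE, edgeR adjusted p = 0.53) when fed. Both genes had higher group means in fasted than in fed livers, and Slc25a29 passed the fasting test in KO livers. Other members that lie within 20000 bases of each other are Slc25a41 and Slc25a23, Slc25a43 and Slc25a5, and Slc25a54 and Slc25a24, and in each of these pairs 1 gene was too low to test.

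The deletion of Slc25a47 went with higher levels of a few other carriers and with small decreases of several more. Slc25a27, Slc25a33, Slc25a37 and Slc25a39 were higher in KO livers in both feeding states. Slc25a11, Slc25a13, Slc25a16, Slc25a21, Slc25a23 and Slc25a48 were lower in both, as was Slc25a47 itself. No member was higher in one state and lower in the other, and 25 members were called in neither.

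By count, 5 members were higher and 9 lower in fasted KO than in fasted WT, 14 of 41 in all, where 28.3% of all tested genes were called (13.8% higher and 14.5% lower). In fed livers 5 were higher and 8 lower in KO, 13 of 41, where 30.9% of all tested genes were called (14% higher and 16.9% lower). The shares of members called were therefore near those of all genes. The groups did not overlap for 12 members when fasted, against 29.5% of all genes, and for 15 when fed, against 28.4% of all genes. The median log2 fold change of the members was -0.09 when fasted and 0.0016 when fed, beside 0.01 and -0.0083 over all tested genes. Without fasted WT replicates 2 and 4, 6 members were higher and 9 lower in fasted KO.

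The split into higher and lower depends on the scaling. TMM factors, which correct for a few genes taking a large part of the reads, were 1.00004 to 1.141 in KO libraries and 0.903 to 0.966 in WT libraries. With library totals alone, the median of all genes moved to 0.20 when fasted and 0.21 when fed. Under that scaling 7 members were higher and 4 lower when fasted (Slc25a23, Slc25a47, Slc25a48 and Slc25a51), and 17 were higher and 1 lower when fed (Slc25a47). The decreases of Slc25a1, Slc25a11, Slc25a12, Slc25a13, Slc25a16 and Slc25a21 were not called under that scaling in either state. Those of Slc25a1 and Slc25a13 in fed livers turned to 0.02 and 0.01 with library totals.

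**Figure D2:**
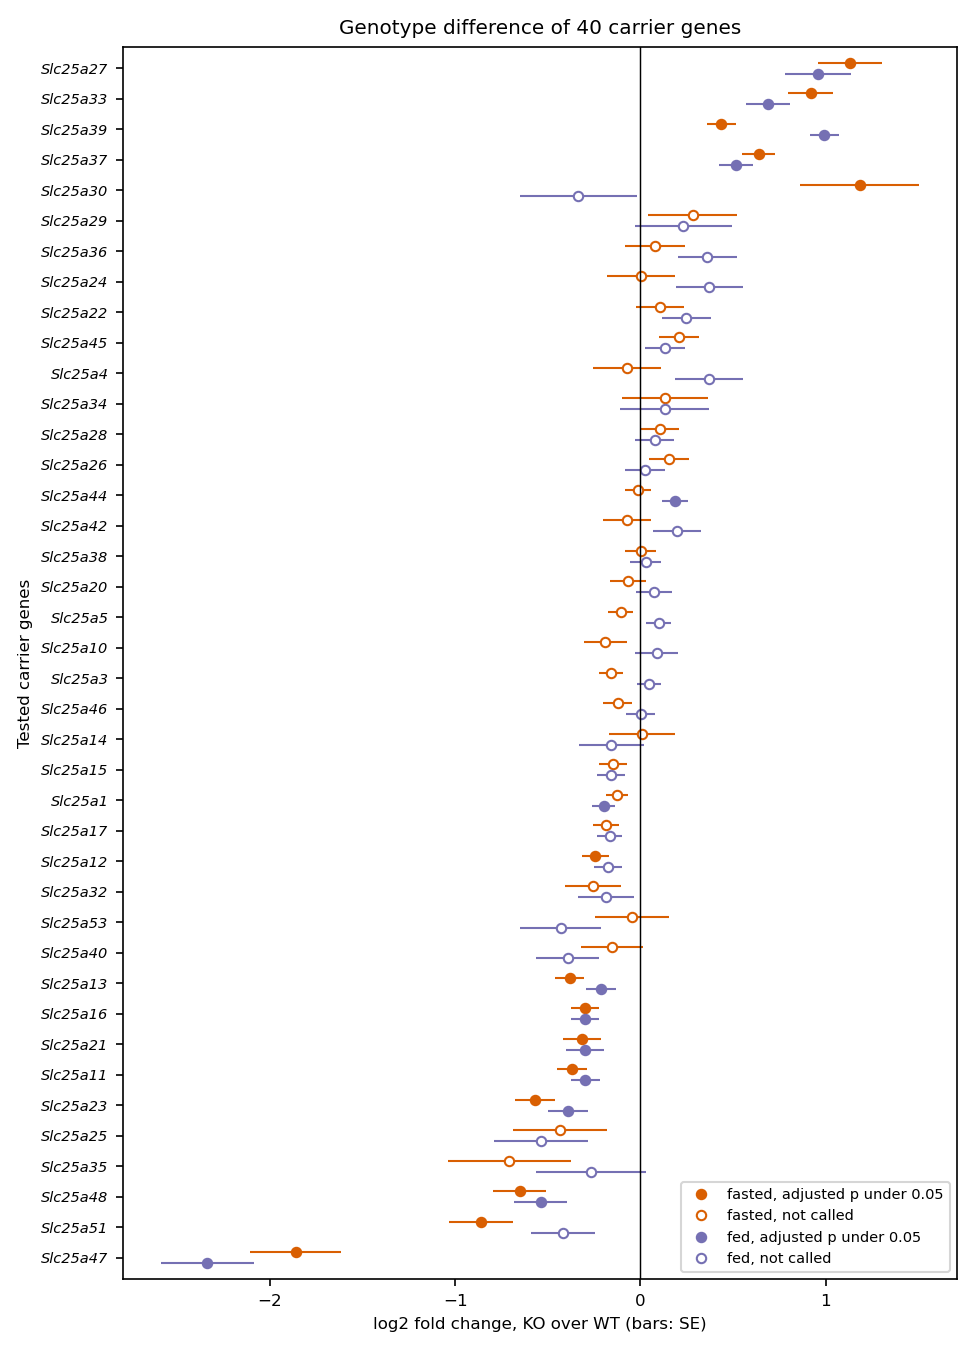
Log2 fold change of KO over WT for 40 of the 41 tested carrier genes, with fasted livers in orange and fed livers in purple. Bars are standard errors and filled points passed an adjusted p of 0.05. Slc25a47 is lowest in both states, and Slc25a27, Slc25a33, Slc25a39 and Slc25a37 are filled to the right of 0 in both.

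Slc25a39 and Slc25a37, carriers of glutathione and of iron, were higher in KO livers. Slc25a39 had 549, 550.0, 559 and 638 CPM in fasted KO, against 379, 465, 412 and 441 CPM in fasted WT. Fed KO libraries had 533, 562, 611 and 546 CPM, against 283, 270.4, 296 and 284 CPM in fed WT. Every KO library was above every WT library, and the fed WT libraries were the lowest of all. KO over WT, the log2 value was 0.44 ± 0.08 (SE, edgeR adjusted p = 0.000376) when fasted and 0.99 ± 0.08 (SE, edgeR adjusted p = 4.31e-08) when fed, the smallest adjusted p of the family in fed livers. Slc25a40, the other glutathione carrier, had values of -0.15 when fasted and -0.39 when fed and was called in neither.

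Slc25a37, mitoferrin 1, which brings iron into mitochondria and is known from red cell precursors, had 37.4, 42.3, 42.1 and 42.8 CPM in fasted KO, against 28.4, 25.3, 22.2 and 29.9 CPM in fasted WT. The fed state gave 46.3, 50.6, 54.7 and 45.6 CPM in fed KO, against 38.6, 33.98, 33.5 and 31.9 CPM in fed WT. The groups did not overlap in either state. On the log2 scale, the fold change was 0.64 ± 0.09 (SE, edgeR adjusted p = 4.61e-05) when fasted and 0.52 ± 0.09 (SE, edgeR adjusted p = 0.000301) when fed. Slc25a28, mitoferrin 2, had values of 0.11 and 0.08 in the same order and was not called. The 9 red blood cell markers found in the table summed to 132 to 251 CPM in fasted KO against 180.0 to 211 CPM in fasted WT, and to 144 to 235 CPM in fed KO against 245 to 266 CPM in fed WT. The 6 tested red blood cell markers had a median log2 fold change of KO over WT of 0.13 when fasted and -0.01 when fed. The part of red cells in the Slc25a37 difference was not tested. Slc25a38, a glycine carrier of haem synthesis, was at 0.00 and 0.03 and was not called.

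Of 11 tested cofactor, nucleotide and iron carriers, 2 were higher and 2 lower in fasted KO. In fed KO, 2 were higher and 1 lower. Of all tested genes, 13.8% were higher and 14.5% lower when fasted, and 14% and 16.9% when fed. The 2 higher ones were Slc25a37, given above, and Slc25a33 in both states. Slc25a33, a pyrimidine nucleotide carrier, had 40.8, 41.8, 49.2 and 42.96 CPM in fasted KO, against 20.9, 26.9, 19.9 and 24.9 CPM in fasted WT. Values of fed livers were 35.2, 41.1, 34.2 and 36.5 CPM in fed KO, against 18.5, 19.7, 25.5 and 27.5 CPM in fed WT. All 8 KO libraries were above all 8 WT libraries. The log2 fold change was 0.92 ± 0.12 (SE, edgeR adjusted p = 2.23e-05) when fasted and 0.69 ± 0.12 (SE, edgeR adjusted p = 0.000321) when fed. Slc25a36, the other pyrimidine nucleotide carrier, was at 0.08 and 0.36 and was not called.

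Slc25a51, which carries NAD into mitochondria, had 75.2, 80.4, 55.9 and 53.7 CPM in fasted KO, against 113, 132, 102 and 134 CPM in fasted WT. In fed livers it had 75.4, 49.5, 66.3 and 92.98 CPM in fed KO, against 85.04, 102, 89.6 and 103 CPM in fed WT. The fasted groups were separate and the fed groups overlapped. Its log2 fold change was -0.86 ± 0.17 (SE, edgeR adjusted p = 0.00166) when fasted and -0.42 ± 0.17 (SE, edgeR adjusted p = 0.0774) when fed, and the difference between the 2 was -0.44 ± 0.24 (SE, edgeR adjusted p = 0.382), which did not pass. Slc25a16, linked to coenzyme A, fell by a similar size in both states, with log2 fold changes of -0.30 ± 0.07 (SE, edgeR adjusted p = 0.00507) when fasted and -0.30 ± 0.07 (SE, edgeR adjusted p = 0.00493) when fed. Slc25a42, a coenzyme A carrier, and Slc25a17, a peroxisomal cofactor carrier, were not called between genotypes.

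The relatives of the uncoupling proteins include Slc25a27, a low-abundance gene known mainly from brain. It had 3.78, 4.05, 4.34 and 4.31 CPM in fasted KO, against 1.49, 1.99, 2.5003 and 1.499 CPM in fasted WT. Fed KO libraries had 2.69, 3.68, 3.11 and 2.86 CPM, against 1.52, 1.799, 1.298 and 1.72 CPM in fed WT. The KO libraries were above all WT libraries in both states. KO over WT, the log2 value was 1.13 ± 0.17 (SE, edgeR adjusted p = 8.45e-05) when fasted and 0.96 ± 0.18 (SE, edgeR adjusted p = 0.000503) when fed.

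Slc25a30, known mainly from kidney, is given by library although it falls outside the rule for such values, and it was chosen after its values were seen. It had 61.99, 130.4, 128 and 226 CPM in fasted KO, against 52.8, 61.4, 47.7 and 78.9 CPM in fasted WT. The fed state gave 117, 83.2, 113 and 105 CPM in fed KO, against 179.6, 102, 132 and 114 CPM in fed WT. Replicate 1 of fasted KO lay within the fasted WT range, and the other 3 were above it. On the log2 scale, the fold change was 1.18 ± 0.32 (SE, edgeR adjusted p = 0.0148) when fasted and -0.33 ± 0.31 (SE, edgeR adjusted p = 0.45) when fed. The fasted call was lost when only these 8 libraries were fitted, with an adjusted p of 0.0697. Slc25a14, the third relative, was at 0.01 and -0.16.

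**Figure D3:**
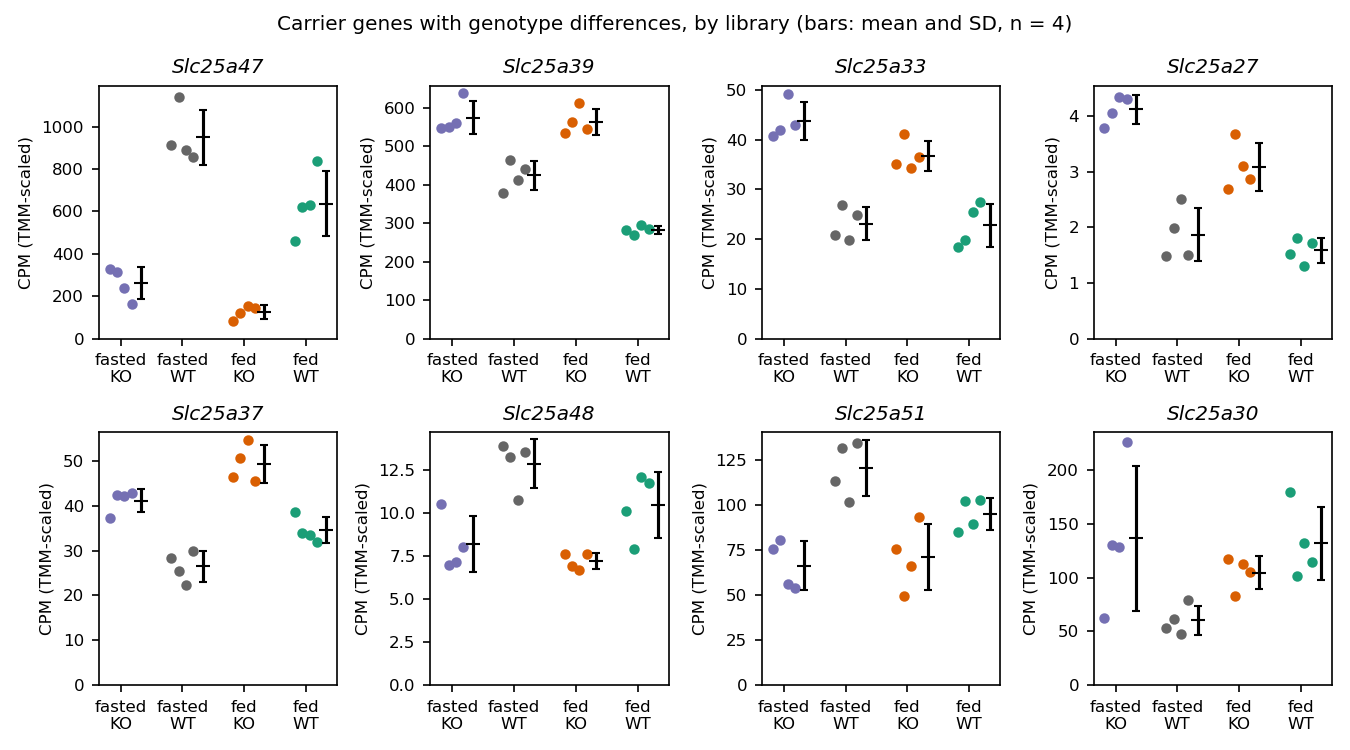
CPM in each library for 8 carrier genes, with groups in the order fasted KO, fasted WT, fed KO and fed WT, and with bars for the mean and SD of 4 libraries. Slc25a39, Slc25a33, Slc25a27 and Slc25a37 are higher in KO in both states, Slc25a47 and Slc25a48 are lower in both, Slc25a51 is separate when fasted and Slc25a30 spreads widely in fasted KO.

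Slc25a48, a choline carrier, had 10.5, 7.01, 7.18 and 8.04 CPM in fasted KO, against 13.9, 13.3, 10.8 and 13.5 CPM in fasted WT. Values of fed livers were 7.63, 6.93, 6.68 and 7.62 CPM in fed KO, against 10.1, 7.92, 12.1 and 11.8 CPM in fed WT. The groups were separate in both states, with narrow gaps between the nearest libraries. The log2 fold change was -0.65 ± 0.14 (SE, edgeR adjusted p = 0.00205) when fasted and -0.54 ± 0.14 (SE, edgeR adjusted p = 0.0085) when fed. With library totals alone the fed call was lost, at -0.32 with an adjusted p of 0.0852.

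Slc25a23, a calcium-regulated carrier of ATP-Mg and phosphate, had 145, 132, 117 and 110.1 CPM in fasted KO, against 209, 196, 145 and 197 CPM in fasted WT. In fed livers it had 236, 274, 229.9 and 264 CPM in fed KO, against 332, 296, 352 and 336 CPM in fed WT. The fed groups were separate, and in the fasted state replicate 3 of WT lay just under the highest KO library. Its log2 fold change was -0.57 ± 0.11 (SE, edgeR adjusted p = 0.000684) when fasted and -0.39 ± 0.11 (SE, edgeR adjusted p = 0.0107) when fed, and the fed call was lost with library totals alone, at -0.17 with an adjusted p of 0.196. Slc25a25 and Slc25a24, of the same subgroup, were not called, at -0.43 and 0.00 when fasted and at -0.54 and 0.37 when fed. The adenine nucleotide translocases Slc25a4 and Slc25a5 and the phosphate carrier Slc25a3 were also not called.

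Slc25a13 had 294, 271, 251 and 238 CPM in fasted KO, against 352, 349.7, 329 and 342 CPM in fasted WT. Fed KO libraries had 191, 189, 202 and 214 CPM, against 213, 212, 249 and 248 CPM in fed WT. The fasted groups were separate and the fed groups overlapped. KO over WT, the log2 value was -0.38 ± 0.08 (SE, edgeR adjusted p = 0.00133) when fasted and -0.21 ± 0.08 (SE, edgeR adjusted p = 0.0474) when fed. The fed call was lost with DESeq2's size factors, at an adjusted p of 0.0547, without fasted WT replicates 2 and 4, at 0.0616, without the filter on low counts, at 0.0598, with the replicate block, at 0.0657, and on the 8 fed libraries alone, at 0.0971. It was also lost without any of fed KO replicates 1, 2 and 3 or fed WT replicates 3 and 4, at 0.0801 to 0.137. Leaving out fasted KO replicate 2 or 3 or fasted WT replicate 1, 2 or 4, which enter through the shared spread, also ended it, at 0.0516 to 0.0565. Its relative Slc25a12, aralar, was lower in fasted KO at -0.24 ± 0.07 (SE, edgeR adjusted p = 0.0174), a call lost without the filter on low counts (adjusted p = 0.0721) or without fasted KO replicate 2 or 3 or fasted WT replicate 1 (0.0525 to 0.0579), and was at -0.18 ± 0.08 (SE, edgeR adjusted p = 0.0818) when fed.

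A group of 6 tested members was taken here as di- and tricarboxylate carriers, with Slc25a34 and Slc25a35 placed among them. Of these 6, 2 were lower in fasted KO and 3 in fed KO, and 0 were higher in either state. Of all tested genes, 14.5% were lower when fasted and 16.9% when fed. With library totals alone, none of these carrier decreases was called. Slc25a11, which exchanges oxoglutarate for malate, was at -0.37 ± 0.08 (SE, edgeR adjusted p = 0.00184) when fasted and -0.30 ± 0.08 (SE, edgeR adjusted p = 0.00884) when fed. Slc25a21, an oxoadipate carrier, was at -0.31 ± 0.10 (SE, edgeR adjusted p = 0.0273) and -0.30 ± 0.10 (SE, edgeR adjusted p = 0.0359) in the same order, and both calls were near the threshold. Without fasted WT replicates 2 and 4 the fasted one had an adjusted p of 0.16, and leaving out fasted KO replicate 3, fasted WT replicate 1 or fasted WT replicate 2 also ended it. The fed one was lost without fed KO replicate 1 or 4 or fed WT replicate 1 or 3, at 0.0793 to 0.106, and without fasted KO replicate 1, at 0.0517. The citrate carrier Slc25a1 was lower in fed KO, at -0.20 ± 0.06 (SE, edgeR adjusted p = 0.0204), and was at -0.13 when fasted. Leaving out fed KO replicate 1 gave the citrate carrier an adjusted p of 0.059, and leaving out fed WT replicate 1 gave 0.0657. Slc25a10, the dicarboxylate carrier, was not called in either state. Slc25a35, at -0.71 ± 0.33 (SE, edgeR adjusted p = 0.121) when fasted and -0.27 ± 0.30 (SE, edgeR adjusted p = 0.521) when fed, was not called either, and its fasted value was the farthest from 0 in the group.

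Carriers of amino acids and acylcarnitine were mostly not called between genotypes. Slc25a20, the carnitine and acylcarnitine carrier of fatty acid oxidation, was at -0.07 when fasted and 0.07 when fed. Slc25a15 was at -0.15 and -0.16, and Slc25a22 at 0.11 and 0.25. Slc25a44, a carrier of branched-chain amino acids, was higher in fed KO at 0.19 ± 0.07 (SE, edgeR adjusted p = 0.0476), a call lost without any 1 of the 8 fed libraries, with adjusted p from 0.0545 to 0.14.

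Over the family without Slc25a47, the summed level was 4257 ± 140.2 CPM in fasted KO against 4500 ± 279 CPM in fasted WT, and 3732 ± 174 CPM in fed KO against 3679 ± 191 CPM in fed WT (SD, n = 4 each). With Slc25a47 included, the sums were 4518 ± 174 CPM in fasted KO against 5450 ± 398 CPM in fasted WT, and 3858 ± 202 CPM in fed KO against 4315 ± 322 CPM in fed WT. In these TMM-scaled CPM, the gap between genotypes in the full sum was thus mostly that of Slc25a47. The sums depend on the scaling. As a mean share of gene reads, the family without Slc25a47 was 0.412% in fed KO against 0.348% in fed WT, with no overlap. When fasted it was 0.444% in KO against 0.413% in WT, with overlap. With Slc25a47 included, the shares were 0.425% in fed KO against 0.408% in fed WT, and 0.471% in fasted KO against 0.4999% in fasted WT. These groups overlapped in both states.

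The effect of the deletion differed between feeding states for 1 member of 41, where 1.7% of all tested genes were called (1.07% higher and 0.633% lower). This was Slc25a39, whose genotype difference was smaller when fasted. The difference of its 2 effects was -0.56 ± 0.11 (SE, edgeR adjusted p = 0.0164). Fasting raised it in WT livers, at 0.58 ± 0.08 (SE, edgeR adjusted p = 1.14e-05), and it was at 0.03 ± 0.08 (SE, edgeR adjusted p = 0.803) in KO livers. The interaction was lost without fasted WT replicates 2 and 4, at -0.45 with an adjusted p of 0.0826, and was called in each fit that left out 1 library.

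At an unadjusted p of 0.05, 4 members passed the same test. The share of all tested genes at that level was not worked out, so this count is not read as a result on the family. Slc25a30 had the largest such difference, at 1.52 ± 0.45 (SE, edgeR adjusted p = 0.116), and it was called by the DESeq2 Wald test with an adjusted p of 0.0302.

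Overnight fasting changed 21 of the 41 tested carriers in KO livers and 20 in WT livers, with more higher than lower. Among members called higher in both genotypes, the largest increases were those of Slc25a20, Slc25a10, Slc25a12 and Slc25a22, which serve fatty acid oxidation, dicarboxylate exchange and the movement of aspartate and glutamate. Among the larger decreases shared by both were those of Slc25a44, Slc25a23 and Slc25a1. The comparisons in KO and WT share no library.

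In KO livers 14 members were higher and 7 lower on fasting, 21 of 41, where 41.4% of all tested genes were called (21.1% higher and 20.3% lower). In WT livers 13 were higher and 7 lower, 20 of 41, where 34.5% of all tested genes were called (16.2% higher and 18.3% lower). The groups did not overlap for 20 members in KO, against 38.2% of all genes, and for 22 members in WT, against 32.8% of all genes. The median log2 fold change of the members was 0.17 in KO and 0.21 in WT, beside -0.0044 and -0.02 over all tested genes. With library totals alone 10 members were higher and 8 lower in KO, and 10 were higher and 7 lower in WT. Without fasted WT replicates 2 and 4, 16 were higher and 6 lower in KO, and 12 were higher and 8 lower in WT.

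The same direction was called in both genotypes for 16 members. The share of all tested genes called alike in both was not worked out, so this count is not read as a trait of the family. Higher in both were Slc25a10, Slc25a11, Slc25a12, Slc25a13, Slc25a15, Slc25a20, Slc25a21, Slc25a22, Slc25a28 and Slc25a46. Among those lower in both were Slc25a1, Slc25a17, Slc25a23, Slc25a37 and Slc25a44. With library totals alone Slc25a28 was called in neither genotype, at an edgeR adjusted p of 0.0949 in KO and 0.102 in WT. Under that scaling Slc25a46 was not called in KO, at 0.0512. No member was called in opposite directions, and a call in 1 genotype alone is not a difference between them unless the interaction passed, which it did for Slc25a39.

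**Figure D4:**
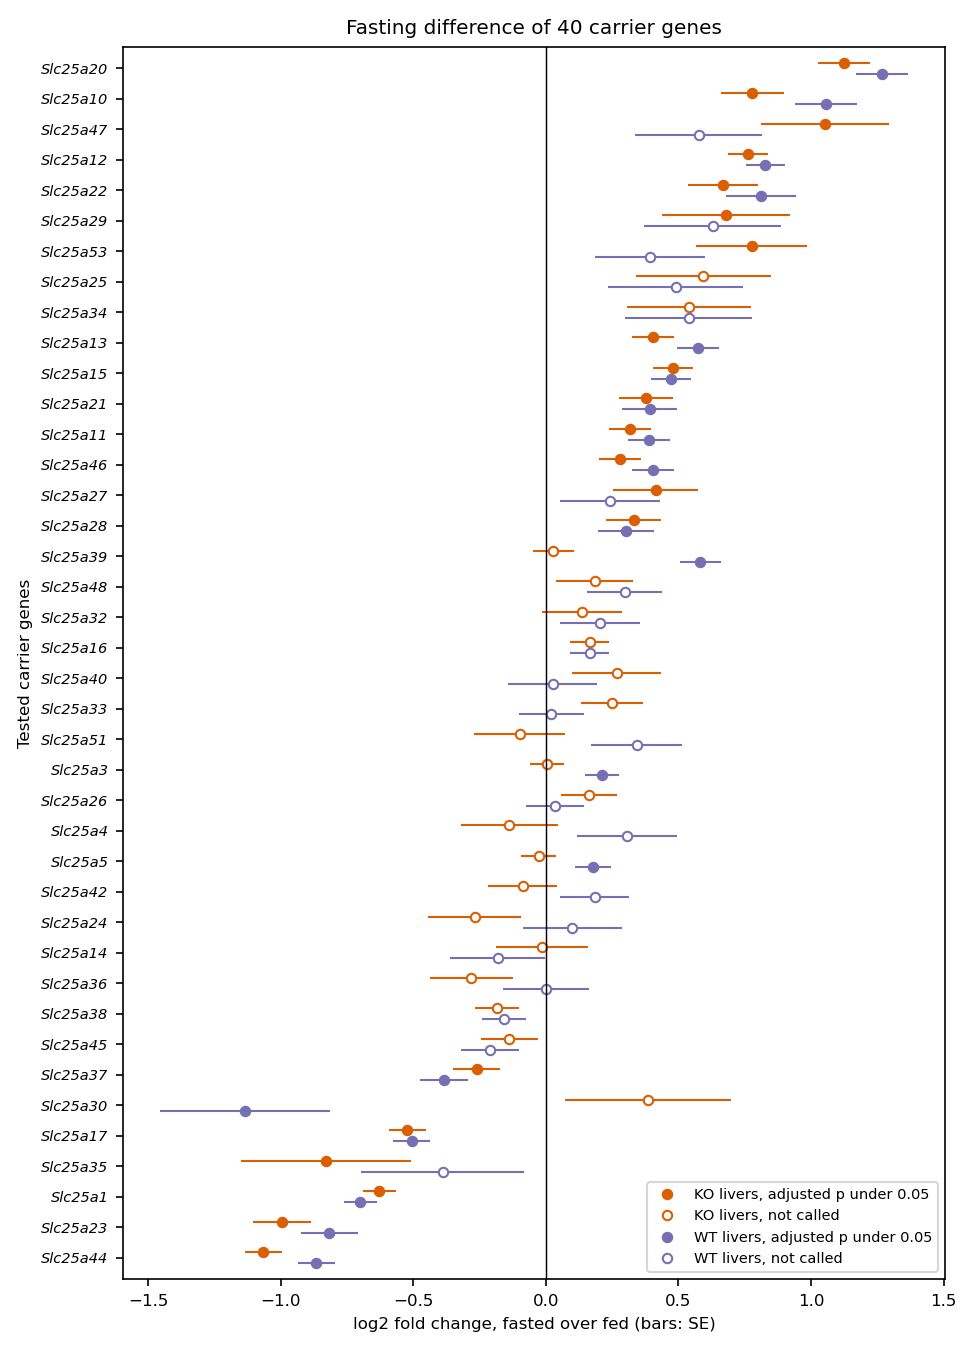
Log2 fold change of fasted over fed for 40 of the 41 tested carrier genes, with KO livers in orange and WT livers in purple. Bars are standard errors and filled points passed an adjusted p of 0.05. Slc25a20, Slc25a10, Slc25a12 and Slc25a22 are filled on the right in both genotypes, and Slc25a44, Slc25a23 and Slc25a1 on the left.

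Slc25a20 had 235, 225, 198 and 191 CPM in fasted KO, against 82.4, 93.3, 99.6 and 114 CPM in fed KO. Fasted WT libraries had 220.4, 229.8, 220.0 and 220.3 CPM, against 83.3, 82.6, 103 and 102 CPM in fed WT. Every fasted library was above every fed library. Fasted over fed, it changed by 1.13 ± 0.10 (SE, edgeR adjusted p = 7.99e-08) in KO and 1.27 ± 0.10 (SE, edgeR adjusted p = 1.62e-08) in WT, the largest increase of the family in each genotype. Its interaction was -0.14 and did not pass.

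Slc25a10, which exchanges malate and succinate for phosphate, had 183, 178, 153 and 166 CPM in fasted KO, against 85.4, 125, 98.8 and 87.2 CPM in fed KO. Levels in WT were 199.6, 209, 176 and 191 CPM in fasted WT, against 89.1, 75.8, 109 and 98.7 CPM in fed WT. The groups were separate in both genotypes. On the log2 scale, the fold change was 0.78 ± 0.12 (SE, edgeR adjusted p = 4.99e-05) in KO and 1.06 ± 0.12 (SE, edgeR adjusted p = 1.82e-06) in WT. Slc25a11 and Slc25a21 rose with it, at 0.32 and 0.38 in KO and at 0.39 and 0.39 in WT, the last with an adjusted p of 0.059 without fasted WT replicates 2 and 4.

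Slc25a1, which exports citrate for lipid synthesis, moved the other way. It had 99.3, 105, 94.1 and 98.4 CPM in fasted KO, against 148, 151, 159.7 and 155 CPM in fed KO. In WT livers it had 102, 115, 104 and 113 CPM in fasted WT, against 187, 172, 169.5 and 175 CPM in fed WT. The groups were separate by a wide margin in both genotypes. The log2 fold change was -0.63 ± 0.06 (SE, edgeR adjusted p = 3.45e-07) in KO and -0.70 ± 0.06 (SE, edgeR adjusted p = 7.22e-08) in WT.

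All 3 tested carriers of aspartate and glutamate rose on fasting in both genotypes. Of all tested genes, 21.1% were higher on fasting in KO and 16.2% in WT. Slc25a12 had 24.8, 22.9, 23.3 and 25.7 CPM in fasted KO, against 13.7, 14.98, 14.9 and 13.4 CPM in fed KO. Fasted WT libraries had 30.1, 29.4, 28.6 and 26.2 CPM, against 16.5, 16.3, 14.7 and 16.96 CPM in fed WT. Aralar is the form known from muscle and brain, and its fasted and fed libraries did not overlap. Its log2 fold change was 0.76 ± 0.07 (SE, edgeR adjusted p = 3.04e-07) in KO and 0.83 ± 0.07 (SE, edgeR adjusted p = 8.58e-08) in WT.

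Slc25a13, the liver form citrin, whose values are given above, was separate between states in both genotypes. Its log2 fold change was 0.41 ± 0.08 (SE, edgeR adjusted p = 0.000475) in KO and 0.57 ± 0.08 (SE, edgeR adjusted p = 1.58e-05) in WT. Slc25a22 had 531, 532, 444 and 519.6 CPM in fasted KO, against 269, 264, 356 and 384 CPM in fed KO. Levels in WT were 373, 526, 489.6 and 495 CPM in fasted WT, against 227, 273, 260.1 and 311 CPM in fed WT. Fasted WT replicate 1 and fasted KO replicate 3 were the lowest of their groups and still above all fed libraries of the same genotype. Fasted over fed, the log2 value was 0.67 ± 0.13 (SE, edgeR adjusted p = 0.000556) in KO and 0.81 ± 0.13 (SE, edgeR adjusted p = 0.000108) in WT.

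Slc25a44 had 55.4, 50.2, 52.5 and 55.3 CPM in fasted KO, against 109, 114, 107 and 117 CPM in fed KO. In WT livers it had 52.4, 60.98, 48.4 and 53.6 CPM in fasted WT, against 99.6, 102, 91.7 and 99.2 CPM in fed WT. The fasted level was near the same in both genotypes, and all fed libraries were higher. On the log2 scale, the fold change was -1.07 ± 0.07 (SE, edgeR adjusted p = 2.78e-09) in KO and -0.87 ± 0.07 (SE, edgeR adjusted p = 2.57e-08) in WT, with the smallest adjusted p of the family in KO. The ornithine carrier Slc25a15 rose, at 0.48 ± 0.08 (SE, edgeR adjusted p = 6.79e-05) in KO and 0.47 ± 0.08 (SE, edgeR adjusted p = 8.78e-05) in WT.

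Slc25a23, given by library above, fell to 110.1 to 145 CPM in fasted KO, against 229.9 to 274 CPM in fed KO, and to 145 to 209 CPM in fasted WT, against 296 to 352 CPM in fed WT. The groups were separate in both genotypes. The log2 fold change was -0.996 ± 0.11 (SE, edgeR adjusted p = 1.13e-06) in KO and -0.82 ± 0.11 (SE, edgeR adjusted p = 1.05e-05) in WT. Slc25a25 was at 0.59 ± 0.25 (SE, edgeR adjusted p = 0.0779) in KO and 0.49 ± 0.25 (SE, edgeR adjusted p = 0.157) in WT and was not called, with one fasted WT library, replicate 4, far under the other 3.

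**Figure D5:**
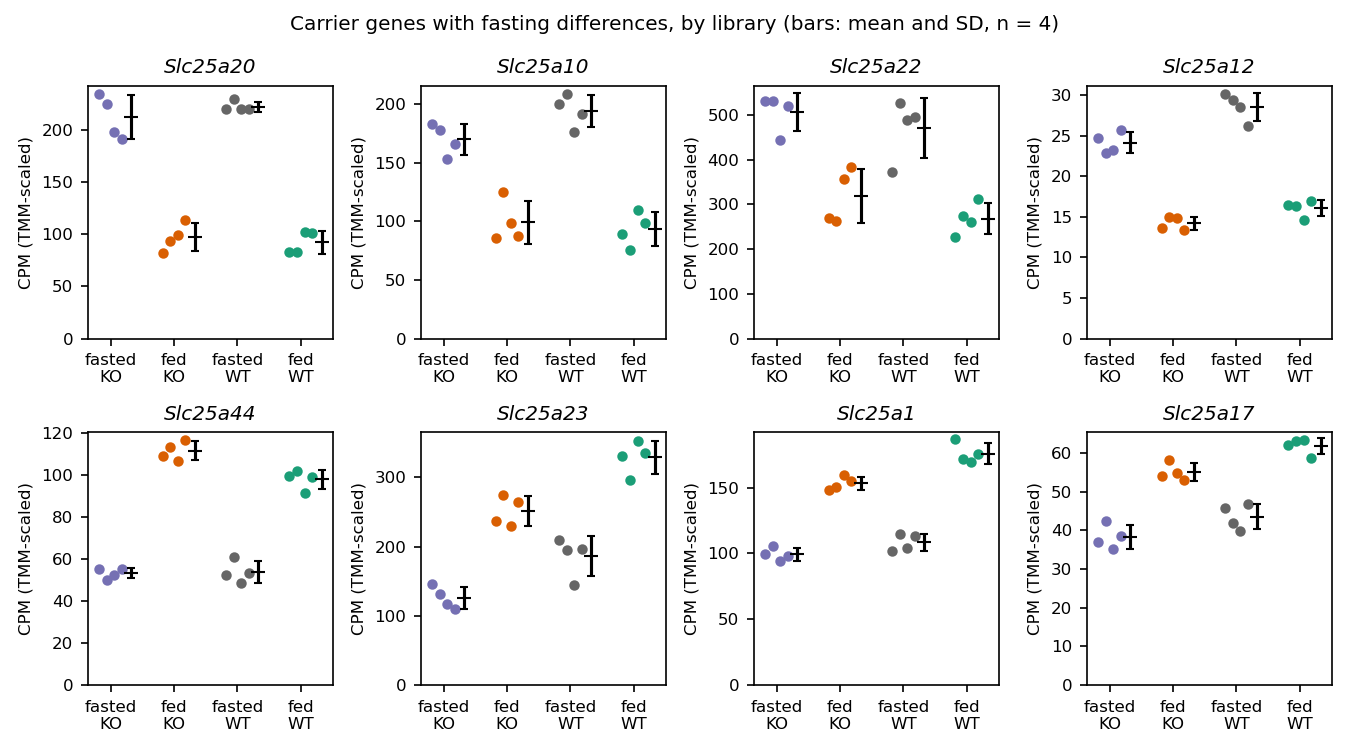
CPM in each library for 8 carrier genes, with groups in the order fasted KO, fed KO, fasted WT and fed WT, and with bars for the mean and SD of 4 libraries. Slc25a20, Slc25a10, Slc25a22 and Slc25a12 are higher in fasted livers and Slc25a44, Slc25a23, Slc25a1 and Slc25a17 lower, in both genotypes.

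Most of the 11 tested cofactor, nucleotide and iron carriers were not called on fasting in either genotype. Their median log2 fold change was -0.09 in KO and 0.03 in WT. Of all tested genes, 41.4% were called in KO and 34.5% in WT. Slc25a17 had 36.9, 42.4, 35.3 and 38.5 CPM in fasted KO, against 54.01, 58.2, 54.9 and 52.8 CPM in fed KO. Levels in WT were 45.6, 41.8, 39.7 and 46.8 CPM in fasted WT, against 61.9, 63.05, 63.2 and 58.6 CPM in fed WT. This peroxisomal carrier was separate between states in both genotypes. Fasted over fed, the log2 value was -0.52 ± 0.07 (SE, edgeR adjusted p = 1.08e-05) in KO and -0.51 ± 0.07 (SE, edgeR adjusted p = 1.59e-05) in WT. Slc25a37 was lower on fasting, at -0.26 ± 0.09 (SE, edgeR adjusted p = 0.0248) in KO and -0.38 ± 0.09 (SE, edgeR adjusted p = 0.00308) in WT, and Slc25a28 was higher, at 0.33 ± 0.10 (SE, edgeR adjusted p = 0.015) and 0.30 ± 0.11 (SE, edgeR adjusted p = 0.0316) in the same order.

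Several of the calls made in 1 genotype were close to the threshold. In KO alone, Slc25a53 (0.78, adjusted p = 0.00602), Slc25a29 (0.68, adjusted p = 0.0303) and Slc25a27 (0.41, adjusted p = 0.0457) were higher beside Slc25a47, and Slc25a35 was lower (-0.83, adjusted p = 0.0446), all by edgeR. In WT alone, Slc25a39, Slc25a3 (0.21, adjusted p = 0.0155) and Slc25a5 (0.18, adjusted p = 0.0458) were higher and Slc25a30 was lower (-1.13, adjusted p = 0.0152), by the same test. Slc25a53, Slc25a29 and Slc25a35 had few reads, with sums over 4 libraries of 187, 257 and 67 in fasted KO and 108, 160 and 120 in fed KO. With library totals alone Slc25a29, Slc25a27, Slc25a3 and Slc25a5 were not called, at edgeR adjusted p of 0.0521, 0.106, 0.0665 and 0.139. Without the low-count filter Slc25a27, Slc25a3 and Slc25a5 were not called, at 0.0911, 0.114 and 0.232. Without fasted WT replicates 2 and 4 the calls of Slc25a3 and Slc25a5 were lost, with adjusted p of 0.14 and 0.22, as were those of Slc25a28 and Slc25a21 in WT, at 0.0819 and 0.059, and that of Slc25a35 in KO, at 0.0506. Single libraries also ended calls. In KO, Slc25a37 was lost without fed KO replicate 3 or fasted KO replicate 1, and Slc25a28 without replicate 4 of either KO group. Slc25a29 was lost without fed KO replicate 1, 3 or 4 or fasted KO replicate 1, 3 or 4. Slc25a35 was lost without fed KO replicate 1 or 2, fasted KO replicate 2, 3 or 4, or any of fed WT replicates 1 and 3 and fasted WT replicates 1 and 4. Slc25a27 was lost without any fasted KO library, fed KO replicate 1, 3 or 4, fed WT replicate 1 or 4, or fasted WT replicate 2. In WT, Slc25a3 was lost without fasted WT replicate 2, and Slc25a28 without replicate 1 or 2 of either WT group. Slc25a5 was lost without any fed WT library, fasted WT replicate 1, 2 or 4, fed KO replicate 1 or 3, or fasted KO replicate 2.

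Across both kinds of comparison, 16 members were called for genotype in at least 1 state, 25 for fasting in at least 1 genotype and 12 for both. Neither was called for 12 members, with log2 fold changes between -0.54 and 0.59 in the 4 contrasts. These are Slc25a4, Slc25a14, Slc25a24, Slc25a25, Slc25a26, Slc25a32, Slc25a34, Slc25a36, Slc25a38, Slc25a40, Slc25a42 and Slc25a45. A p above the threshold does not show that their levels were equal. The share of all tested genes in these combined counts was not worked out, and single comparisons called 28.3% to 41.4% of all tested genes. The combined counts are therefore not read as a trait of the family.

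Relatives of the family under other symbols were 5 genes, of which 3 were tested. Ucp2, an uncoupling protein, was higher in fed KO than in fed WT at 0.65 ± 0.19 (SE, edgeR adjusted p = 0.0174), and was at 0.35 when fasted. Mtch1 and Mtch2, outer membrane proteins related to the carriers, were lower in KO, Mtch2 when fasted at -0.37 ± 0.06 (SE, edgeR adjusted p = 0.000333) and Mtch1 when fed at -0.28 ± 0.07 (SE, edgeR adjusted p = 0.00719). Ucp1 and Ucp3 had too few reads to test.

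Of 15 tested genes of the path that imports carriers, 2 were higher and 1 lower in fasted KO than in fasted WT, and 2 were higher and 0 lower in fed KO than in fed WT, where 28.3% and 30.9% of all tested genes were called in either direction. Agk, a lipid kinase that is also a TIM22 subunit, was higher in fed KO at 0.75 ± 0.14 (SE, edgeR adjusted p = 0.000499), as was Tomm5, a small TOM subunit, at 0.48 ± 0.13 (SE, edgeR adjusted p = 0.0103). Timm10, a small TIM chaperone, was higher in fasted KO at 0.73 ± 0.13 (SE, edgeR adjusted p = 0.000427), as was Tomm40, the TOM channel, at 0.36 ± 0.11 (SE, edgeR adjusted p = 0.0228). Such counts moved with the scaling, and with library totals alone 6 were higher in fasted KO and 12 in fed KO. On fasting 6 were higher and 3 lower in KO, and 7 were higher and 1 lower in WT, beside 41.4% of all genes called in KO and 34.5% in WT. Under library totals these were 4 higher and 4 lower in KO and 5 higher and 2 lower in WT. Tomm20, a TOM receptor, rose at 0.44 ± 0.08 (SE, edgeR adjusted p = 0.000181) in KO and 0.58 ± 0.08 (SE, edgeR adjusted p = 1.16e-05) in WT.

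Of 15 other mitochondrial membrane transporters, 2 were higher and 4 lower in fasted KO than in fasted WT, and 3 were higher and 3 lower in fed KO than in fed WT, beside the same 28.3% and 30.9% of all genes. Scaled by library totals, 5 were higher and 3 lower when fasted, and 8 were higher and 3 lower when fed. Abcb10, an inner membrane transporter linked to haem synthesis, was lower at -0.49 ± 0.08 (SE, edgeR adjusted p = 0.000214) when fasted and -0.62 ± 0.08 (SE, edgeR adjusted p = 1.47e-05) when fed. The sideroflexin Sfxn1, a serine transporter, was lower at -0.40 ± 0.06 (SE, edgeR adjusted p = 8.2e-05) and -0.39 ± 0.06 (SE, edgeR adjusted p = 0.000107) in the same order. Mpc2, a subunit of the pyruvate carrier, was higher in fed KO at 0.30 ± 0.08 (SE, edgeR adjusted p = 0.00704). Fasting called 5 higher and 3 lower in KO and 6 higher and 4 lower in WT, against 41.4% and 34.5% of all genes, or 3 higher and 3 lower in KO and 6 higher and 4 lower in WT with library totals. Mpc1, the other pyruvate carrier subunit, rose at 0.47 ± 0.09 (SE, edgeR adjusted p = 0.000325) in KO and 0.50 ± 0.09 (SE, edgeR adjusted p = 0.000247) in WT.

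Of 24 enzymes that use or supply carrier substrates in liver, 3 were higher and 11 lower in fasted KO than in fasted WT, and 4 were higher and 9 lower in fed KO than in fed WT, where 28.3% and 30.9% of all tested genes were called. With library totals alone, 5 were higher and 8 lower when fasted, and 9 were higher and 4 lower when fed. Mdh2, the matrix malate dehydrogenase, was higher at 0.57 ± 0.08 (SE, edgeR adjusted p = 2.74e-05) when fasted and 0.84 ± 0.08 (SE, edgeR adjusted p = 3.24e-07) when fed. Mthfd2, a matrix enzyme of folate metabolism, was higher at 2.06 ± 0.26 (SE, edgeR adjusted p = 1.19e-05) and 1.20 ± 0.21 (SE, edgeR adjusted p = 0.000292) in the same order. The urea cycle enzymes Arg1 and Cps1 were lower in fed KO, at -1.06 ± 0.15 (SE, edgeR adjusted p = 4.33e-05) and -0.66 ± 0.11 (SE, edgeR adjusted p = 0.000208).

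On fasting, 11 of these enzymes were higher and 7 lower in KO, and 12 were higher and 7 lower in WT, where 41.4% and 34.5% of all tested genes were called. Library totals alone gave 11 higher and 8 lower in KO, and 12 higher and 8 lower in WT. Cpt1a, which makes the acylcarnitines that Slc25a20 carries, rose at 1.54 ± 0.08 (SE, edgeR adjusted p = 3.57e-10) in KO and 1.28 ± 0.08 (SE, edgeR adjusted p = 2e-09) in WT. Acly, which cleaves the citrate that Slc25a1 exports, fell, at -2.20 ± 0.17 (SE, edgeR adjusted p = 7.47e-08) in KO and -2.34 ± 0.17 (SE, edgeR adjusted p = 2.88e-08) in WT. Oat, the ornithine aminotransferase, had a smaller fasting effect in KO, with an interaction of -0.84 ± 0.14 (SE, edgeR adjusted p = 0.00763).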

How the data were processed

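Liver RNA of 16 libraries was made with a TruSeq Stranded mRNA kit from 500 ng of total RNA, per the labels' protocols. The submitters' processing notes name cutadapt 1.8, STAR 2.5.3a, HTSeq 0.9.1 and GRCm38. Neither the strand setting nor the annotation release is named there. The deposited values are raw gene counts from the authors, with 5 summary lines per library, which were left out of totals and tests.

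Tests used edgeR 4.0.16 (R 4.3.3) quasi-likelihood F tests on all 16 libraries, with 1 coefficient per group, TMM scaling, the default filter on low counts and Benjamini-Hochberg adjustment over 13905 genes at 0.05, for 4 contrasts between groups and the difference of the genotype effects. A positive fold change means higher in KO, or higher in fasted livers. SEs are the log2 fold change divided by the root of F. CPM are scaled by TMM-adjusted totals of tested genes, and exon lengths came from GENCODE vM21, in which 99.8% of gene IDs were found. Gene reads per library were 19.6 M to 27.3 M. The tests were checked on simulated counts.

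Values in every library are given for Slc25a47 and for members called in a contrast between groups with an absolute log2 fold change of at least 0.5, no overlap and an average log2 CPM of at least 1, for at most 10 per contrast. Results of 1 member are not reported here singly, and family counts include it. Members and gene lists were chosen with earlier results of these data known. Alternatives were DESeq2 1.42.0 (size factors and the Wald test), library totals, no low-count filter, a replicate block, fits without 1 library, without fasted WT replicates 2 and 4, and on 8 libraries alone. No 2 libraries agreed within sampling noise. The smallest chi-square per gene between libraries of a group was 6.80. Replicate numbers were not used to pair libraries.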

Additional observations from a re-analysis of the deposited data

Results flagged for a closer look

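In 4 of 64 groups of 4 libraries examined, 1 library stood apart from the other 3 by Dixon's ratio, where chance gives about 1 in 20, or 3.2 groups. Slc25a20 was 229.8 CPM in fasted WT replicate 2, above 3 libraries that lay close together. Slc25a22 was 444 CPM in fasted KO replicate 3, under the others. Slc25a37 was 37.4 CPM in fasted KO replicate 1, under the others and still above every fasted WT library. Slc25a39 was 638 CPM in fasted KO replicate 4, above the others.

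The genotype effect on Slc25a39 differed between fasted and fed livers by -0.56 on the log2 scale in the test of the difference itself, as given above with its value without fasted WT replicates 2 and 4.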

How the results depend on the processing

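Of 69 calls on single genes, 44 kept their call and sign under every alternative run. With library totals alone, fed livers had 17 members higher in KO and 1 lower, and fasted livers had 4 lower in KO; Slc25a1 and Slc25a13 in fed livers reversed to 0.025 and 0.0078. The all-gene median moved with them, and the cause was not tested. The DESeq2 Wald test called 2 interactions, 1 of them higher, and 0 were called, 0 of them lower, without fasted WT replicates 2 and 4; the cause was not tested. Slc25a47 on fasting in WT was called at 0.59 by the DESeq2 Wald test and at 0.60 with only 8 libraries.

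Leaving out 1 library in turn gave 12 to 15 calls for fasted genotype (5 to 5 higher, 7 to 10 lower), 9 to 13 for fed genotype (4 to 5 higher, 5 to 8 lower), 17 to 22 for fasting in KO (11 to 15 higher, 6 to 8 lower), 18 to 22 for fasting in WT (10 to 15 higher, 7 to 8 lower) and 1 to 2 for the interaction (0 to 1 higher, 1 to 1 lower). The lowest fed count was reached without fed KO replicate 1, and the second interaction without fasted KO replicate 1. Slc25a47 ran from -2.02 to -1.69 and from -2.46 to -2.18 for genotype when fasted and fed, from 0.89 to 1.22 and from 0.45 to 0.73 for fasting in KO and WT, and from 0.31 to 0.65 for the interaction. It passed on fasting in WT without fed KO replicate 1 (adjusted p = 0.0473), fed WT replicate 4 (0.038) or fasted KO replicate 4 (0.0406).

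With the replicate number as a block, 5 members were higher and 9 lower for fasted genotype, 5 and 6 for fed genotype, 14 and 7 for fasting in KO, 12 and 7 for fasting in WT, and 0 and 1 for the interaction. The numbers were not taken to pair the libraries, since deviations of 24 same-numbered pairs correlated at -0.17 to 0.25, with 3 over 0.1 (median 0.031, against -0.0055 for other pairs). In 20 of 48 cases a library correlated best with its own number, where 12 would with no relation, a hint from the data and not from the design. The 6 untested members had at most 53 reads in all.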
